A study of Mus musculus with 4 samples.

Results

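The genes described here are 9 markers of lipid-associated, profibrotic macrophages: Trem2, Tyrobp, Gpnmb, Spp1, Fabp5, Cd9, Lgals3, Lpl and Apoe. They were taken by symbol from a table of 16360 genes, and all 9 were present and passed the filter on low counts, as did 13575 genes in all. The cells were recruited alveolar macrophages, which arise from blood monocytes that enter an injured lung. They came from male mice of 8 to 10 weeks, of a strain labelled CD57/Bl6, that were either wild type (WT) or homozygous for R213G, a variant of EC-SOD, the extracellular superoxide dismutase that Sod3 encodes; the variant loosens its hold on the matrix. Every mouse had been given intratracheal bleomycin 7 days earlier (100 µl of a solution of 1 U/ml), so both genotypes carry the injury and there is no uninjured group. The sort took cells with high CD64, high CD11b and low Siglec-F. There were 2 libraries of poly(A) RNA per genotype, and the labels do not say whether each came from a separate mouse. The p-values therefore measure only the spread between these libraries, which may be technical.

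Lipid-associated macrophages appear where cells die and lipid has to be cleared. Trem2 is a surface receptor that binds lipids, lipoproteins and apolipoproteins, and it signals through the adaptor protein encoded by Tyrobp, which recruits the kinase Syk. Macrophages with this set of genes have been described in fat, arterial plaque, injured brain and fibrotic liver and lung, where cells rich in Spp1, Gpnmb, Cd9 and Fabp5 lie near scar tissue.

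All 9 genes were abundant in every library, and none passed the test between genotypes. The lowest value of any of them was 433 CPM (counts per 1000000, with library sizes scaled by TMM) and the highest 14940 CPM. The largest differences between genotype means were for Apoe and Gpnmb, lower in R213G by -0.25 and -0.21 on the log2 scale, and for Lpl, higher by 0.20. These differences were smaller than the gaps between the WT libraries of the same genes, at 0.67, 0.71 and 0.40. At an adjusted p under 0.05, 0 of the 9 were called (edgeR quasi-likelihood test with Benjamini-Hochberg adjustment), as were 0 of all 13575 genes (0%). At an unadjusted p under 0.05 there were 0 of the 9, against 2.22% of all genes (302). DESeq2 called 1 gene, which was not a marker, and limma voom 0.

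The start regions of Spp1 and Trem2 are shown because they were the members in which a motif was found, and that of Apoe because it was the most abundant gene and held none. Each is the 250 bases before the transcription start in RefSeq (GRCm38.p6), 5′ to 3′ on the strand of the gene. Such entries were found for 6 of the 9 genes (Trem2, Gpnmb, Spp1, Cd9, Lgals3 and Apoe, with 2 starts listed for Spp1 and 3 for Apoe, of which the start nearest to the gene's 5′ end was taken). Capitals mark matches to GAGGAAG, a core of sites bound by the macrophage factor PU.1, and to TATAAA, the TATA box, on either strand. The positions are chr5:104434861-104435110 on the plus strand for Spp1, chr17:48346151-48346400 on the plus strand for Trem2 and chr7:19699189-19699438 on the minus strand for Apoe.
Spp1: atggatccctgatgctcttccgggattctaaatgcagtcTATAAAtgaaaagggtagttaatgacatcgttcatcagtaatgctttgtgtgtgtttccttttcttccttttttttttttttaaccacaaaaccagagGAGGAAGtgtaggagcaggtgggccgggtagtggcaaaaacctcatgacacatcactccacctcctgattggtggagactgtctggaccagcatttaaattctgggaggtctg
Trem2: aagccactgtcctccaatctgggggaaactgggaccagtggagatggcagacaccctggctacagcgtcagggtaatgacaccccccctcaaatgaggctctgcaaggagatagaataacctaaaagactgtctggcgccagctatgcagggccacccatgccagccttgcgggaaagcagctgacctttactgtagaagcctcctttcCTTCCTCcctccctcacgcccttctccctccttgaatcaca
Apoe: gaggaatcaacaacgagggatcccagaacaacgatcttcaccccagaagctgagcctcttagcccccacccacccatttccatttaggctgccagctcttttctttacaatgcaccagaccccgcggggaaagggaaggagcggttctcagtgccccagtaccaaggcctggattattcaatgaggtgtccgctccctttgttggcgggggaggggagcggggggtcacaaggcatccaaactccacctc
The GAGGAAG motif was in 2 of the 6 windows, from 113 to 107 bases before the start in Spp1 and, on the opposite strand, from 41 to 35 bases before the start in Trem2. It was in 10.6% of all 32851 windows of this length. The TATAAA motif was in the Spp1 window from 211 to 206 bases before the start, and in 12.4% of all windows. The motifs TGACTCA (AP-1, in 4.46% of all windows), CACGTG (the E-box of the MiT/TFE factors, 6.02%) and TCATGTG (the core of the M-box of Mitf, 3.25%) were in 0 of the 6. None of the motifs searched overlapped another here. These matches are letters in a window and were not tested as binding sites.

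The receptor and its adaptor come first. Trem2 lies on chromosome 17 from 48346401 to 48354147 (GRCm38, GENCODE vM21, plus strand). It was at 433 and 556 CPM in R213G replicates 1 and 2 and at 555 and 503 CPM in WT replicates 1 and 2. R213G replicate 1 was the lowest library and R213G replicate 2 the highest, so the genotypes overlapped. The log2 fold change, R213G minus WT throughout, was -0.10 ± 0.14 (SE; unadjusted p = 0.493), and its 95% interval ran from 0.753-fold to 1.16-fold. Leaving out R213G replicate 1 gave 0.07, and leaving out R213G replicate 2 gave -0.29.

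Tyrobp, on chromosome 7 from 30413760 to 30417585 (plus strand), had the difference nearest to 0 of the 9. It was at 865 and 882 CPM in R213G and at 938 and 829 CPM in WT. The WT libraries enclosed both R213G libraries. Its log2 fold change was -0.02 ± 0.11 (unadjusted p = 0.888; 95% interval 0.829-fold to 1.18-fold). It was 0.07 without WT replicate 1. A ratio of 2 genes within a library is free of library scaling, and since it is not corrected for length only its change between libraries is read. The CPM ratio of Trem2 to Tyrobp was 0.500 and 0.630 in the 2 libraries of R213G and 0.592 and 0.607 in those of WT. The ratio was thus lowest in R213G replicate 1 and differed more between the R213G libraries, by 0.33 on the log2 scale, than between genotypes, by 0.09.

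**Figure D1:**
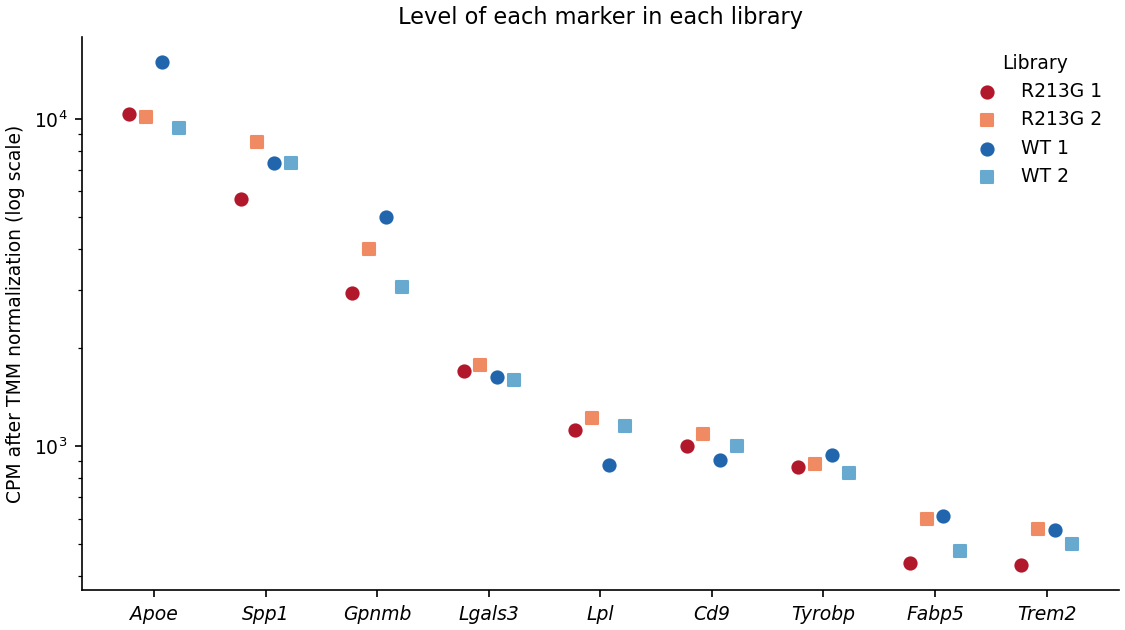
CPM after TMM normalization (vertical log axis) of each of the 9 markers in each of the 4 libraries, 1 point per library. The libraries of the genotypes overlap for every gene except Lgals3, and the widest scatter is in Gpnmb, from 2946 to 5014 CPM.

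Apoe, Lpl and Fabp5 handle lipid. Apoe encodes apolipoprotein E, which macrophages secrete to carry cholesterol away and which is itself a ligand of Trem2. It lies on chromosome 7 from 19696109 to 19699188 (minus strand) and ranked between 3 and 5 among all tested genes by CPM in the 4 libraries. It was at 10384 and 10136 CPM in R213G and at 14940 and 9410 CPM in WT. WT replicate 1 stood above the other 3 libraries, and WT replicate 2 was the lowest. The log2 fold change was -0.25 ± 0.19 (unadjusted p = 0.225; 95% interval 0.627-fold to 1.13-fold). Without WT replicate 1 it was 0.12, and without WT replicate 2 it was -0.54 (unadjusted p = 0.0172), so its direction rested on 1 library.

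Lpl, the lipoprotein lipase that frees fatty acids from triglyceride-rich lipoproteins, lies on chromosome 8 from 68880491 to 68907448 (plus strand). It was at 1120 and 1215 CPM in R213G and at 874 and 1153 CPM in WT. Here WT replicate 1 was the lowest library, and the other 3 lay close together. Its log2 fold change of 0.20 ± 0.14 (unadjusted p = 0.183; 95% interval 0.923-fold to 1.44-fold) was 0.02 without WT replicate 1 and 0.42 without WT replicate 2. Fabp5, a cytosolic chaperone of fatty acids, lies on chromosome 3 from 10012548 to 10016607 (plus strand). It was at 440 and 598 CPM in R213G and at 611 and 478 CPM in WT. Each genotype thus held a high and a low library. The log2 fold change was -0.07 ± 0.17 (unadjusted p = 0.687; 95% interval 0.735-fold to 1.24-fold), and leaving out R213G replicate 1 or WT replicate 1 gave 0.13 or 0.12.

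Fabp5 has 5 annotated copies elsewhere that match a stretch of at least 200 bases at 93.6% to 98.3% identity, so its reads could be shared with them. The 4 copies in the table held 289 counts over all libraries, against 72425 for Fabp5. Fabp4 encodes the related fatty acid binding protein of resident alveolar macrophages and adipocytes. The CPM ratio of Fabp5 to Fabp4 was 16.7 and 12.4 in the 2 libraries of R213G and 13.1 and 12.5 in those of WT. It was highest in R213G replicate 1, where Fabp4 stood at 26.3 CPM, below the other libraries (38.3 to 48.3 CPM).

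Spp1 and Lgals3 encode secreted proteins linked to scarring. Spp1 encodes osteopontin, a matrix protein and cytokine that binds integrins and Cd44. It lies on chromosome 5 from 104435118 to 104441050 (plus strand) and shares 309 bases of exon with the gene model Gm42793 on the same strand, which held 990 counts against 981953 for Spp1. Spp1 was at 5676 and 8486 CPM in R213G and at 7319 and 7316 CPM in WT. The R213G libraries lay on either side of the WT libraries, which differed by 0.000528 on the log2 scale. The log2 fold change was -0.05 ± 0.17 (unadjusted p = 0.791; 95% interval 0.739-fold to 1.27-fold). Leaving out R213G replicate 1 gave 0.21 and leaving out R213G replicate 2 gave -0.37 (unadjusted p = 0.00812), so each R213G library alone gave the opposite direction to the other.

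Fn1, which encodes the matrix protein fibronectin, was read beside Spp1. The CPM ratio of Spp1 to Fn1 was 0.532 and 0.879 in the 2 libraries of R213G and 0.651 and 0.545 in those of WT, so the genotypes overlapped. Lgals3 encodes galectin-3, a lectin that binds galactose-bearing glycans and is secreted by activated macrophages. It lies on chromosome 14 from 47367751 to 47386160 (plus strand). It was at 1694 and 1767 CPM in R213G and at 1620 and 1590 CPM in WT. Both R213G libraries were above both WT libraries, and Lgals3 was the only 1 of the 9 of which this was true in either direction, where 28.9% of all tested genes did not overlap. The gap between genotypes was small, with a log2 fold change of 0.11 ± 0.11 (unadjusted p = 0.339; 95% interval 0.912-fold to 1.27-fold). The CPM ratio of Lgals3 to its relative Lgals1 was 2.60 and 2.54 in the 2 libraries of R213G and 2.66 and 2.36 in those of WT, so the genotypes overlapped on that scale.

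Gpnmb and Cd9 encode membrane proteins. Gpnmb is a glycoprotein of lysosomes and the cell surface that is induced in lipid-laden macrophages. It lies on chromosome 6 from 49036546 to 49070929 (plus strand). It was at 2946 and 4006 CPM in R213G and at 5014 and 3055 CPM in WT. WT replicate 1 was the highest library, as for Apoe, and R213G replicate 1 and WT replicate 2 were both low. Its log2 fold change was -0.21 ± 0.23 (unadjusted p = 0.386), the widest interval of the 9, from 0.592-fold to 1.25-fold. Leaving out WT replicate 1 gave 0.19, R213G replicate 1 -0.01 and WT replicate 2 -0.53 (unadjusted p = 0.0448). The CPM ratio of Gpnmb to Spp1, computed after the values were seen, was 0.519 and 0.472 in the 2 libraries of R213G and 0.685 and 0.418 in those of WT.

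Cd9, a tetraspanin that organizes adhesion and signalling molecules in the membrane, lies on chromosome 6 from 125460266 to 125494791 (minus strand). It was at 997 and 1092 CPM in R213G and at 906 and 999 CPM in WT. R213G replicate 1 and WT replicate 2 were nearly equal, so the genotypes overlapped narrowly. Its log2 fold change was 0.13 ± 0.11 (unadjusted p = 0.274; 95% interval 0.918-fold to 1.31-fold) and stayed positive without each library, between 0.06 and 0.21. The CPM ratio of Cd9 to the related tetraspanin Cd63 was 4.05 and 3.39 in the 2 libraries of R213G and 3.08 and 3.82 in those of WT. A copy named Cd9-ps, with 91.1% identity, held 90 counts against 136229 for Cd9, and the antisense model Gm26728 shares 218 bases of exon with it.

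**Figure D2:**
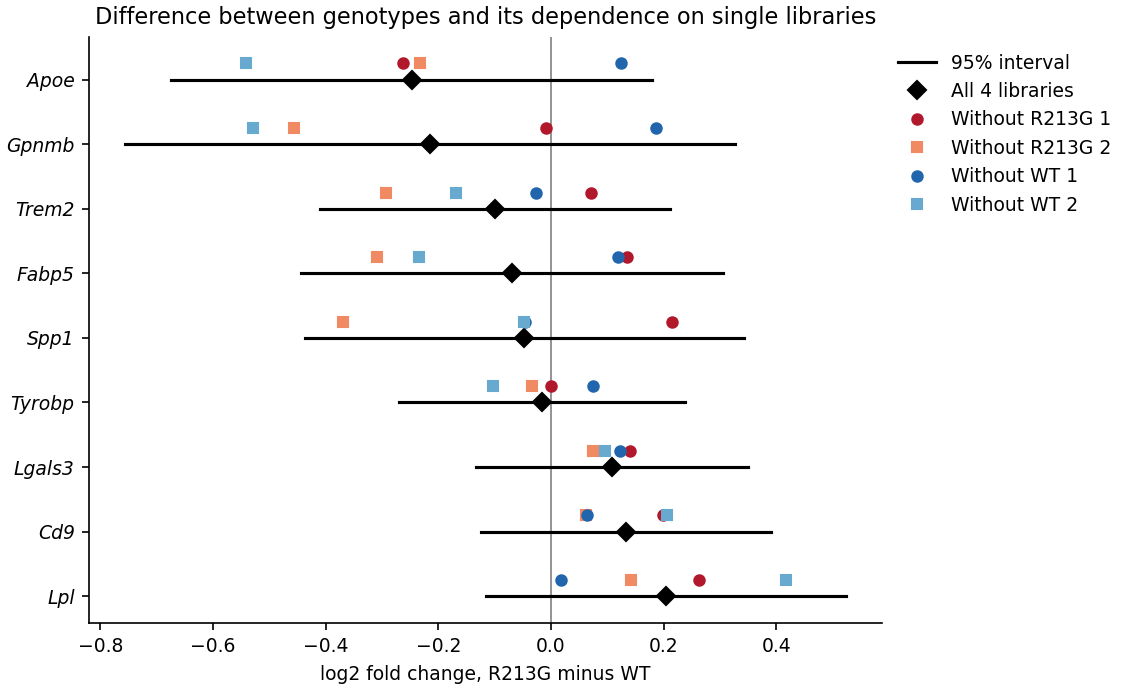
Log2 fold change, R213G minus WT, of each marker (black diamonds) with its 95% interval (black lines), and the same value with each library left out in turn (coloured points). All 9 intervals include 0, and 6 of the 9 genes changed sign without at least 1 library.

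The intervals carry only the spread between 2 libraries per genotype, which may be technical. Over the 9 genes they ran from 0.592-fold at the lowest to 1.44-fold at the highest. A p that misses the threshold does not show that the genotypes were alike, and differences inside these intervals remain possible. If the libraries of a genotype did not come from separate mice, the intervals do not limit the difference between genotypes. Counting error was small beside the intervals: it was at most 0.823% of the count, for Trem2 in its lowest library. Of the 9 genes, 3 had a positive log2 fold change (Cd9, Lgals3 and Lpl), where 49.1% of all tested genes were positive. The median was -0.05, and -0.01 over all tested genes. The difference between genotypes was larger than both gaps between libraries of a genotype for 1 of the 9, Lgals3, and for 16.7% of all tested genes.

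The 9 genes did not vary as a block. Spp1, Trem2, Fabp5 and Gpnmb were lowest in R213G replicate 1, where 36.5% of all tested genes were also lowest. Apoe, Gpnmb, Fabp5 and Tyrobp were highest in WT replicate 1, where 24.8% of all tested genes were highest. Lpl and Cd9 went the other way and were lowest in WT replicate 1, as 24.4% of all tested genes were. Trem2, Spp1, Lgals3, Lpl and Cd9 were highest in R213G replicate 2, where 22.4% of all tested genes were highest. R213G replicate 1 also had the fewest genes with a count, 13584 against 14598 to 15194 in the others. It stood apart from each of the other 3 libraries, with a chi-square per degree of freedom of 47.1 to 57.1, against 17.5 to 33.2 among those 3. The part of this in the low values was not tested.

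**Figure D3:**
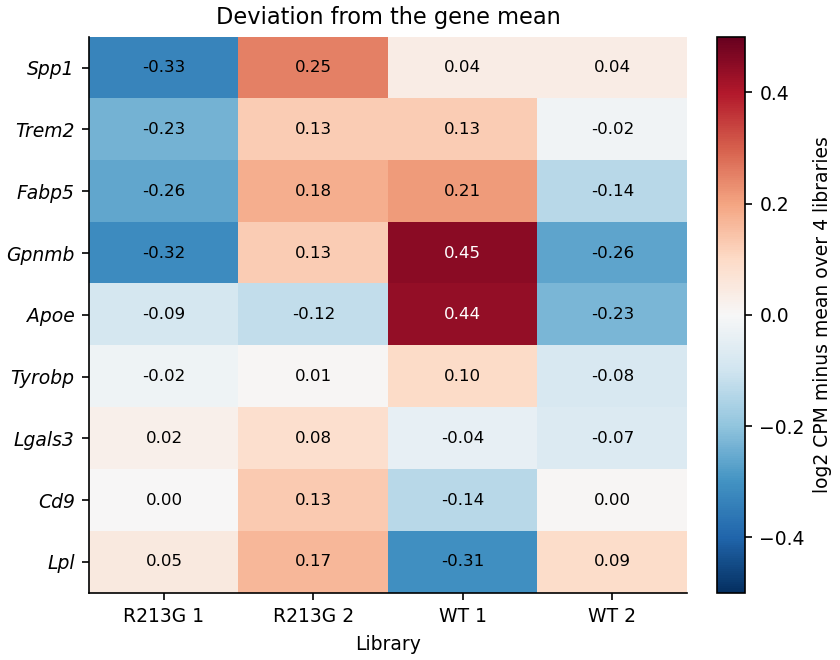
Log2 CPM of each marker minus its mean over the 4 libraries (colour and printed value), with libraries in columns. Spp1, Trem2, Fabp5 and Gpnmb are lowest in R213G 1, between -0.23 and -0.33, and Gpnmb and Apoe are highest in WT 1, at 0.45 and 0.44.

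Together the 9 genes took 2.503% and 2.84% of all counts in the 2 libraries of R213G and 3.23% and 2.55% in those of WT (Wilson 95% intervals 2.498% to 2.509%, 2.837% to 2.848%, 3.22% to 3.23% and 2.54% to 2.55%, for counting error only). The means were 2.67% ± 0.240 (SD, n = 2) in R213G and 2.89% ± 0.479 (SD, n = 2) in WT. WT replicate 1 held the largest share, and the genotypes overlapped. With 2 libraries a genotype, the smallest two-sided p of an exact permutation test is 0.3333, so none was run. Apoe alone took 0.947% to 1.47% of counts in the 4 libraries, and Spp1 0.579% to 0.839%. Without Apoe the share of the other 8 genes was 1.44% and 1.84% in the 2 libraries of R213G and 1.76% and 1.60% in those of WT.

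**Figure D4:**
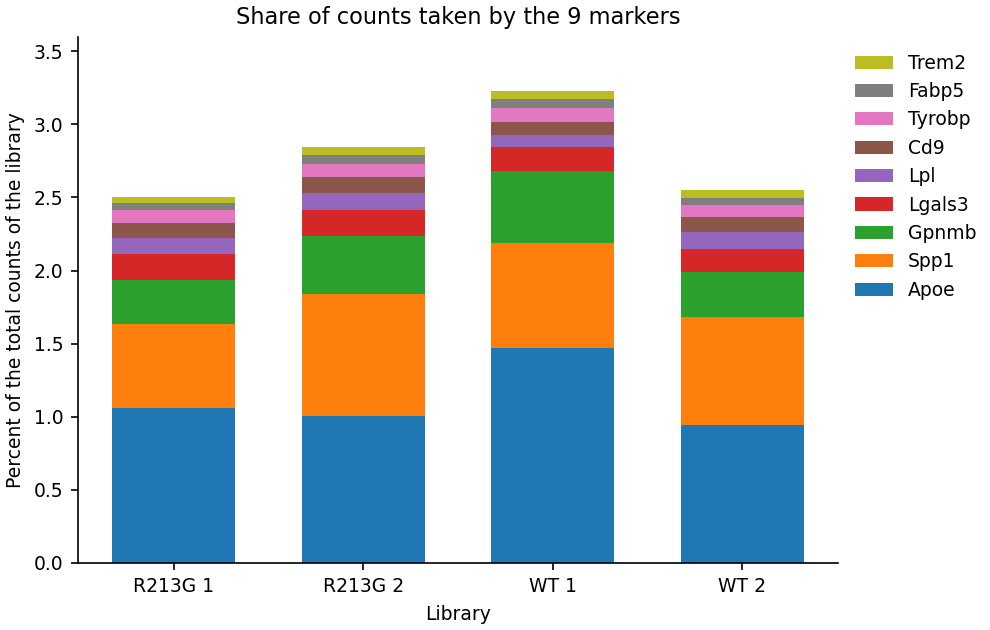
Percent of the total counts of each library taken by the 9 markers, stacked by gene, 1 bar per library. The bars reach 2.503% and 2.84% in the 2 libraries of R213G and 3.23% and 2.55% in those of WT, and Apoe, Spp1 and Gpnmb fill most of each.

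Levels of different genes can be compared only per length. By CPM per kilobase of the longest principal transcript, a length chosen after the data were seen, Apoe led the 9 at 6683 to 10611 over the 4 libraries. Spp1 came next at 3767 to 5631, then Tyrobp at 1470 to 1663. Apoe, Spp1 and Tyrobp did not overlap each other in this order. Lgals3 (1121 to 1245) and Gpnmb (796 to 1355) overlapped, as did Gpnmb and Cd9 (738 to 889). Fabp5 (446 to 619) and Trem2 (398 to 511) overlapped too, and Lpl was lowest at 212.5 to 295 CPM per kilobase. Tyrobp thus stood above its receptor Trem2 in every library on this scale. With the union of all annotated exons as the length, Apoe (4401 to 6988) and Spp1 (3444 to 5150) overlapped, and Trem2 was at 87.5 to 112 beside Lpl at 83.5 to 116. Among all genes with a length, Trem2 ranked between 80 and 115 by the principal transcript and between 303 and 430 by the union of exons, whose length for Trem2 is 4946 bases against 1088. The order of the leading genes was Apoe, Spp1, Tyrobp, Lgals3, Gpnmb, Cd9 and Fabp5 by mean on both scales.

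Genes that work with the 9 markers were read from 8 lists (1 of them the 3 sort genes), 94 genes in all, of which 89 passed the filter. None was called at an adjusted p under 0.05, and 1 was at an unadjusted p under 0.05. The median log2 fold change of the 89 was -0.03, with 36 positive and 53 negative. The genotypes were separate, with no overlap of libraries, for 17 of them (19.1%, against 28.9% of all tested genes). In R213G replicate 1, 45 of the 89 were lowest, as were 36.5% of all tested genes.

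Downstream of Trem2 and Tyrobp, 6 of 10 signalling and shedding genes were positive, with a median of 0.04 and 0 called. Syk, the kinase that binds the phosphorylated adaptor, was at 508 and 573 CPM in R213G and at 627 and 541 CPM in WT (log2 fold change -0.11 ± 0.12). Adam17, a protease that sheds Trem2 from the surface, was at 241 and 299 CPM in R213G and at 300 and 288 CPM in WT. Like Trem2 it was lowest in R213G replicate 1. Hcst, the adaptor gene that neighbours Tyrobp, was scarce, at 12.7 and 6.67 CPM in R213G and at 4.36 and 7.66 CPM in WT.

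Of 7 receptor genes for osteopontin, 2 were positive, with a median of -0.05 and 0 called. The integrin subunit Itga4 was the 1 related gene at an unadjusted p under 0.05 in the main edgeR test. It was at 256 and 312 CPM in R213G and at 351 and 345 CPM in WT, a log2 fold change of -0.30 ± 0.13 (unadjusted p = 0.0438, edgeR adjusted p = 0.9996). Both R213G libraries were below both WT libraries. Its log2 fold change was -0.16 without R213G replicate 1 (unadjusted p = 0.205) and -0.45 without R213G replicate 2, and without WT replicate 1 or 2 the unadjusted p was 0.169 or 0.139. Cd44 was at 720 and 777 CPM in R213G and at 701 and 711 CPM in WT, with a log2 fold change of 0.09 ± 0.11. Itgb3, a subunit of the osteopontin receptor of osteoclasts, was at most 3.33 CPM in any library.

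Of 13 genes that act with apolipoprotein E and lipoprotein lipase, 10 were tested and 5 were positive, with a median of -0.05 and 0 called. Angptl4, a secreted inhibitor of lipoprotein lipase, was at 66.3 and 87.9 CPM in R213G and at 95.2 and 85.5 CPM in WT. It was highest in WT replicate 1, as 24.8% of all tested genes were. In that library Apoe was highest and Lpl lowest, and a link with Angptl4 was not tested. Lrp1, a large receptor for lipoproteins that carry apolipoprotein E, was at 2854 and 3549 CPM in R213G and at 3442 and 3765 CPM in WT.

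Of 12 lipid droplet and lysosomal lipid genes, 3 were positive, with a median of -0.06 and 0 called. In R213G replicate 1, 10 of the 12 were lowest, as were 36.5% of all tested genes. Among genes with a mean of at least 100 CPM that share was 37.9%. Npc1, which exports cholesterol from lysosomes, was at 593 and 811 CPM in R213G and at 846 and 704 CPM in WT. The protease gene Ctsd was at 7625 and 11619 CPM in R213G and at 11370 and 9813 CPM in WT. As for Spp1, the gap was inside R213G. Plin2, a coat protein of lipid droplets named after its values were seen, was at 1110 and 1093 CPM in R213G and at 1363 and 951 CPM in WT, and so was highest and lowest in the same libraries as Apoe.

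Relatives of the 9 markers from the same families were positive in 9 of 17 cases, with a median of 0.01 and 0 called. Trem3 was near the limit of detection, with 42 and 43 counts in R213G and 16 and 3 counts in WT. The tetraspanin Cd82 was at 72.4 and 69.6 CPM in R213G and at 64.0 and 54.0 CPM in WT, a difference of 0.27 ± 0.15 in log2. The genotypes did not overlap for either gene, and neither passed the test. In the whole list 3 of 17 did not overlap (17.6%), against 28.9% of all tested genes.

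Among 16 other profibrotic or lipid-associated markers 5 were positive, with a median of -0.05 and 0 called. Fn1 was at 10662 and 9657 CPM in R213G and at 11239 and 13434 CPM in WT. Both R213G libraries were below both WT libraries, with a log2 fold change of -0.28 ± 0.13 (edgeR unadjusted p = 0.0620, adjusted p = 0.9996). The unadjusted p was 0.0175 with DESeq2, 0.0268 with limma voom and 0.0450 with edgeR without a filter. With edgeR it was 0.123 with a replicate block, 0.0803 at a mean of at least 5 CPM and 0.0783 in the legacy form. It was 0.0604 with DESeq2 size factors and 0.0589 with upper-quartile factors in edgeR. The log2 fold change of Fn1 was -0.15 without WT replicate 2 and -0.40 without WT replicate 1. Arg1, the arginase of alternatively activated macrophages, was at 641 and 497 CPM in R213G and at 593 and 779 CPM in WT. Igf1, a growth factor named after its values were seen, was at 116 and 250 CPM in R213G and at 225 and 202 CPM in WT. It was low in R213G replicate 1 only, as Spp1 was.

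Of 14 regulators of such genes 5 were positive, with a median of -0.02 and 0 called. Pparg, a nuclear receptor for fatty acids of which Lpl is a known target, was at 41.3 and 40.8 CPM in R213G and at 25.8 and 36.3 CPM in WT, a log2 fold change of 0.40 ± 0.20 (unadjusted p = 0.0797). It was lowest in WT replicate 1, as Lpl and 24.4% of all tested genes were, and a link between Pparg and Lpl was not tested. The log2 fold change of Pparg was 0.17 without that library and 0.67 without WT replicate 2. Tfeb, which drives lysosomal genes, was at 93.6 and 84.0 CPM in R213G and at 71.6 and 76.4 CPM in WT, and Maf, a macrophage differentiation factor, at 114 and 141 CPM in R213G and at 165 and 142 CPM in WT. The genotypes did not overlap for these 3 genes, and none passed the test. For Maf the nearest libraries were almost equal, at 141.2 CPM in R213G replicate 2 and 141.8 CPM in WT replicate 2. In the whole list 4 of 14 did not overlap (28.6%), near the 28.9% of all tested genes.

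**Figure D5:**
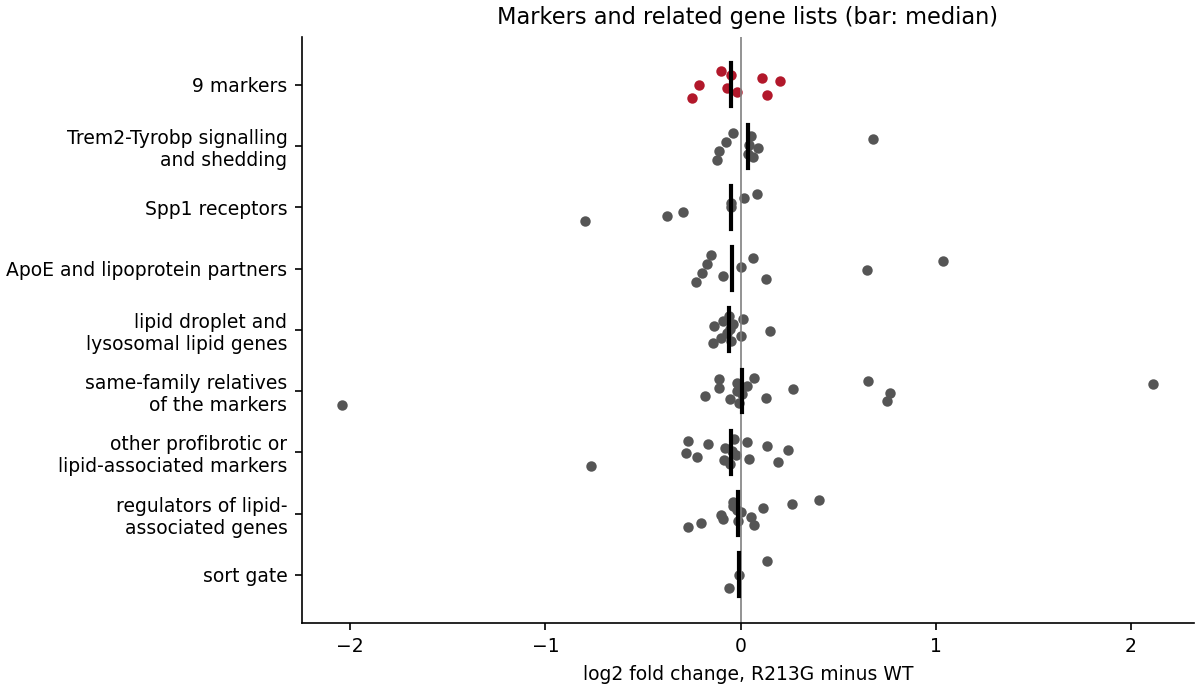
Log2 fold change, R213G minus WT, of the 9 markers (red) and of the tested genes of 8 related lists (grey), 1 point per gene, with the median of each list as a black bar. The list medians lie between -0.06 and 0.04, and the 9 markers lie between -0.25 and 0.20.

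By a rule of likeness, genes with a mean of at least 50 CPM were ranked by the distance of their centred log2 CPM over the 4 libraries from the mean profile of the 9 markers. The nearest 3 of 4050 genes were Clasp2, Saraf and Plekhm1, at distances of 0.00824, 0.0182 and 0.0239, where the median gene was at 0.278. Clasp2 was at 77.2 and 91.3 CPM in R213G and at 90.5 and 80.9 CPM in WT. The nearest to Spp1 were Timp2, Itfg1 and Mocos, at distances of 0.0375, 0.0483 and 0.04999 (median gene 0.439). Timp2 was at 673 and 998 CPM in R213G and at 842 and 869 CPM in WT, so it too had its low and high library within R213G. With 4 libraries these distances are a description only, and the nearest of 4050 genes lie far below the median by how they were picked. The mean profile does not describe each marker, since the 9 did not vary as a block.

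Transcripts of the proteins used in the sort were read as a check. Fcgr1, which encodes CD64, was at 243 to 261 CPM, Itgam, which encodes CD11b, at 721 to 886 CPM and Siglecf at 10.8 to 12.1 CPM over the 4 libraries, and none of the 3 was called. Sod3, the gene that carries the variant, was at 0.117 and 1.35 CPM in R213G and at 1.42 and 2.80 CPM in WT, and the level of this scarce transcript does not check an amino acid substitution. Total counts were 33488569 to 35176210 per library. In sorted bulk RNA, fewer cells of a type and less RNA per cell cannot be told apart. Summed markers of interstitial macrophages (6 genes, led by C1qa, with Lyve1 at 0 in R213G 1 and WT 1) were lowest in R213G replicate 1, at 6234 CPM against 7093 to 7915 CPM, as Spp1, Trem2, Fabp5 and Gpnmb were. C1qa alone held 2200 to 2903 CPM. Without C1qa the other 5 summed to 4034 and 5012 CPM in R213G and to 4800 and 4546 CPM in WT. Markers of resident alveolar macrophages (8 genes, with Fabp1 at 0 in R213G 1 and WT 1) summed to 206 to 577 CPM, most of it Chil3 (134 to 504 CPM). Without Chil3 the other 7 summed to 56.5 and 106 CPM in R213G and to 72.4 and 73.1 CPM in WT. Dendritic cell markers (5 genes) summed to 92.3 CPM (R213G 1), 73.0 CPM (WT 1), 21.4 CPM (R213G 2) and 23.2 CPM (WT 2). Of these 5 genes, 2 had no counts in R213G 1 and 1 had none in WT 1. Cd209a led, with 61.9 CPM (R213G 1), 31.3 CPM (WT 1), 10.2 CPM (R213G 2) and 13.1 CPM (WT 2). The other 4 genes held 30.4 CPM (R213G 1) and 41.7 CPM (WT 1), against 11.1 CPM (R213G 2) and 10.2 CPM (WT 2). Monocyte markers (5 genes) summed to 634 to 816 CPM and were highest in R213G 1. Without the leading gene of that list the other 4 summed to 141 and 163 CPM in R213G and to 286 and 189 CPM in WT, and were lowest in R213G 1. Endothelial markers, nearly all Vwf, summed to 92.2 to 138 CPM. Neutrophil markers (3 of the 5 listed genes) summed to 65.9 to 85.6 CPM, of which Csf3r held 45.3 to 74.5 CPM. Without Csf3r the other 2 summed to 11.08 to 20.65 CPM. Airway epithelial markers (4 genes) summed to 10.9 to 34.1 CPM, most of it Epcam (9.59 to 32.2 CPM). Without Epcam the other 3 summed to 1.34 to 2.79 CPM. Markers of alveolar epithelium (5 genes) summed to at most 4.49 CPM. Markers of T and NK cells (3 of the 5 listed genes), B cells (2 of 4) and fibroblasts (1 of 5, Col1a1) summed to at most 2.21 CPM, which covers only these genes. Whether these sums come from other cells or from the sorted macrophages themselves was not tested, nor was their part in the differences between libraries.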

How the data were processed

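RNA of sorted recruited alveolar macrophages was sequenced as directional poly(A) libraries, per the labels' protocols. The deposited table holds whole-number counts by gene symbol, not normalized by the authors. GRCm38, STAR 2.5.1b, featureCounts and Subread 1.4.4 are named in the submitters' processing notes. The annotation release and the strand setting were not given in the sources used here, nor was the handling of reads with several matches. Each column carries its sample's short label, and no pair of libraries agreed within sampling noise (chi-square per degree of freedom at least 17.5).

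Counts were tested in R 4.3.3 with edgeR 4.0.16 (quasi-likelihood with legacy = FALSE and robust estimation, filterByExpr by group, TMM, genotype only, 2 residual degrees of freedom) and adjusted by Benjamini-Hochberg over 13575 genes. The SE is the log2 fold change divided by the square root of F, and the 95% intervals use the moderated degrees of freedom. Log2 CPM used a prior count of 2. Depth was 33488569 to 35176210 counts per library. Positions and lengths came from GENCODE vM21, with lengths for 13264 tested genes (exon union) and 11716 (principal transcript). Copies were sought with blastn among annotated transcripts (at least 90% identity over at least 200 bases). Scripts were tested on simulated data.

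The markers and the gene lists were chosen with earlier results of these data known. The rule for named genes took all 9 markers, at most 3 genes of smallest p per related list, the leading gene of marker lists and the gate genes; exceptions are named in the text, and 1 gene that the rule took is not reported here. Alternatives were a replicate block, voom (limma 3.58.1), DESeq2 1.42.0 or its size factors, upper-quartile factors, the legacy form, a filter at a mean of 5 CPM or none, and each library left out. Vldlr and Fabp7 did not pass the filter, and Apoc2, Gpihbp1 and Lipg were not analysed here.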

Additional observations from a re-analysis of the deposited data

How the results depend on the processing

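No marker was called under any of the 12 alternative fits, with a lowest adjusted p of 0.287. Under the 8 that kept all libraries, all 9 kept their direction. The genes called over the whole table numbered 1 with DESeq2 (Clrn2) and 0 to 2 with a library left out (Gm42418 and Lars2 without R213G replicate 2). Genes with an unadjusted p under 0.05 numbered 302, 150 with a mean of at least 5 CPM, where fewer genes were tested, and 71 to 1960 with a library left out. The markers at that level numbered 0 to 3 with a library left out: Spp1 and Trem2 without R213G replicate 2, and Apoe, Gpnmb and Lpl without WT replicate 2, where 13.5% and 1.44% of all genes were. The mean share of counts was 1.64% in R213G and 1.68% in WT without Apoe.

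Left-out libraries turned the direction of 6 markers. Log2 fold changes ranged from -0.29 to 0.0716 for Trem2, -0.10 to 0.0749 for Tyrobp, -0.53 to 0.19 for Gpnmb, -0.37 to 0.21 for Spp1, -0.31 to 0.13 for Fabp5 and -0.54 to 0.12 for Apoe. They ranged from -0.29 to 0.0273 for Adam17, -1.52 to 0.61 for Itgb3, -0.39 to 0.0666 for Npc1, -0.48 to 0.13 for Ctsd, -7.95 to 1.28 for Lipc, -0.19 to 0.0591 for Itgam and -0.0591 to 0.0428 for Fcgr1. The cause was not tested. A fit with 1 library in a genotype assumes that it varies like the other genotype.

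The labels number the libraries alike in both genotypes without saying that a number marks a shared batch. The difference of replicate 1 minus 2 correlated between genotypes at 0.0926 across all tested genes and at 0.149 across the 2088 genes with a mean of at least 100 CPM, which are not independent replicates. With a replicate block the log2 fold changes were -0.21 for Apoe, -0.19 for Gpnmb and 0.22 for Lpl, and 0 genes were called.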
